A study of Rattus norvegicus with 35 samples.

Results

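The 10 genes described here, Mcm2, Mcm3, Mcm4, Mcm5, Mcm6, Mcm7, Pcna, Rrm1, Rrm2 and Tyms, encode proteins that license the origins of DNA replication, hold the polymerases on DNA and supply its nucleotides. They were chosen by name, and 17 of the 41012 probes of the array belong to them. Gene names or descriptions in the scanner files gave 8 of the genes, and Rrm1 and Rrm2, listed there under the names Rrm1_mapped and Rrm2_mapped, were matched through their RefSeq transcripts. RNA of the olfactory epithelium of 27 Brown Norway rats had been hybridized to 35 one-colour Agilent arrays. The newborn rats were 19 pups aged 3 to 5 days, of sex not known, from litters L1 (4 pups) and L2, L3 and L4 (5 pups each), with 1 array per pup for one side of the nose. The adult group comprised 4 males of 9 weeks and the old group 4 males of 22 months, and each of these rats gave 2 arrays, A and B, one per nostril. No rat was treated, so that age, sex and, for the pups, the litter and the smaller dissection went together.

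Before a cell enters S phase, the Mcm2 to Mcm7 proteins are loaded as a ring-shaped helicase onto origins marked by the origin recognition complex, and the ring then unwinds DNA at the fork. Pcna is the sliding clamp of the replicative polymerases, ribonucleotide reductase (Rrm1 with Rrm2) makes deoxyribonucleotides and thymidylate synthase (Tyms) makes dTMP. In the olfactory epithelium, sensory neurons are replaced throughout life by dividing basal cells, of which the globose basal cells are the most active.

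A level is the log2 of the background-subtracted intensity of a probe divided by the median intensity of its array, so that levels of different probes cannot be set against each other. The median intensity was between 46 and 96.5 for newborn, 88.7 and 179 for adult and 40.2 and 59.8 for old rats. Adult arrays were scanned alone on the first 2 of 5 scan days, L1 and old arrays together on the third, and L2, L3 and L4 arrays on the last 2. Differences that involve adult rats therefore cannot be told apart from scan day, and L1 against old rats was the only comparison between ages within a day. Differences were tested with limma across the 23668 probes above background in every litter, in adult and in old rats, and differences are called at an adjusted p below 0.01. Of the 10 genes, 9 passed this filter with at least 1 probe (16 probes), and Tyms did not. The gene with several probes is represented by the one with the highest mean level over all rats, and the others are given beside it. The SE and adjusted p of a newborn difference come from the spread of rats within each litter and age group. They leave out the spread between litters, so that they overstate the precision for newborn rats in general. A fit with litter means as replicates was among the alternatives.

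Each of the 9 tested genes was higher in newborn than in adult rats and in newborn than in old rats. Among all probes tested, 39.6% rose and 26.3% fell in newborn relative to adult rats, and against old rats these shares were 27.7% and 31.8%. The median difference of the 9 genes was 1.88 on the log2 scale for newborn minus adult, where the median of all probes was 0.16, and 2.31 for newborn minus old, where it was −0.04. Between adult and old rats, 4 of the 9 genes (Mcm4, Mcm5, Mcm6 and Rrm2) were higher in adult rats and none was lower, while 15.3% of all probes were higher in adult rats and 31.7% lower. The median adult minus old difference was 0.29 for the 9 genes and −0.19 for all probes. Because whole tissue was measured, fewer cells of a type and less RNA per cell cannot be told apart. The rats did not overlap for 7 of the 9 genes between newborn and adult (24% of all probes had every pup above every adult rat), for 8 between newborn and old (14.2%) and every adult rat lay above every old rat for 6 (18.7%), Mcm3 among them by a margin that vanishes on rounding. Mcm7 had the reverse order.

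**Figure D1:**
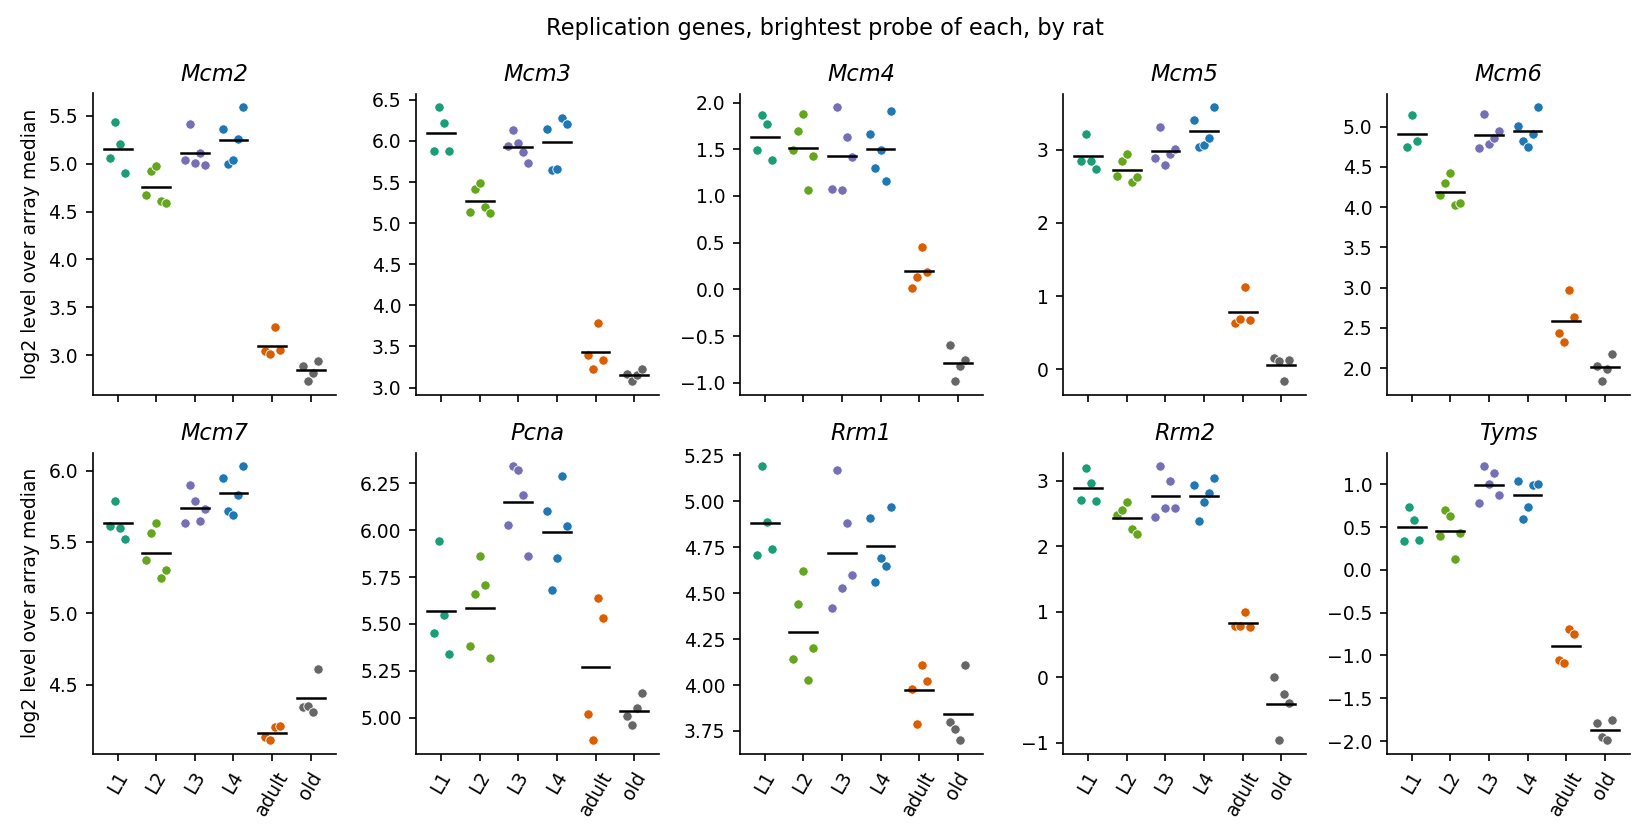
Level of each of the 10 genes in each rat. Each point is 1 rat (the mean of 2 arrays for adult and old rats), black lines are group means, and the vertical axis, which differs between panels, is the log2 level over the array median. All pups lie above all adult and old rats for Mcm2 to Mcm7, Rrm2 and Tyms, and for Mcm7 the old rats lie above the adults.

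Among the helicase subunits, Mcm2 ranged from 4.59 to 5.59 in the pups, with a median of 5.04. The adult rats had levels of 3.04, 3.01, 3.29 and 3.05 and the old rats of 2.89, 2.73, 2.81 and 2.94. The 3 age groups did not overlap. Mcm2 was 3.91-fold higher in newborn (mean 5.07 ± 0.22, SD over 4 litters) than in adult rats (log2 difference 1.97 ± 0.10 SE, adjusted p = 1.89e-14) and 4.68-fold higher than in old rats. The adult minus old difference of 0.26 ± 0.13 did not pass the threshold (adjusted p = 0.0947) for this probe, at chr4:123223278-123223337 of rn3, but the second Mcm2 probe, whose 60 bases span 151 bases of the genome (chr4:123225767-123225917), gave 0.65 ± 0.12 (adjusted p = 7.67e-05).

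The 2 probes of Mcm3 gave different values. On its brighter probe the pups ranged from 5.12 to 6.41 (median 5.88), the adult rats had 3.40, 3.23, 3.78 and 3.34 and the old rats 3.16, 3.08, 3.15 and 3.23. The pups stood apart, and the lowest adult rat equalled the highest old rat to 2 decimals. On the other probe the old rats had 0.06, 0.05, 0.09 and 0.06 and the adults between 1.03 and 1.83, with pups from 1.89 to 3.25. Newborn minus adult was 2.38 ± 0.12 on the first probe (5.21-fold) and 1.25 ± 0.13 on the second (2.38-fold). Adult minus old was 0.29 ± 0.15 (adjusted p = 0.106) and 1.32 ± 0.17 (adjusted p = 3.57e-07), whereas newborn minus old was much the same, 2.67 and 2.57. The probes lie at chr9:19535990-19536049 and chr9:19540346-19541402 of rn3, on the minus strand, and the second, spanning 1057 bases, covers parts of at least 2 exons. Their 60 bases are printed because the choice between them decides whether Mcm3 is called between adult and old rats.
Mcm3, brighter probe: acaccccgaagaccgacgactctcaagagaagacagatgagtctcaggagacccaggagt
Mcm3, second probe: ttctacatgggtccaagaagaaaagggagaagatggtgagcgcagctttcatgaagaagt

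Mcm4 ranged from 1.06 to 1.95 in the pups (median 1.49), was at 0.02, 0.13, 0.45 and 0.19 in the adult rats and at −0.59, −0.98, −0.82 and −0.76 in the old rats. The 3 ages did not overlap, and adult rats lay between the others. Newborn rats had 2.50-fold more than adult rats (1.32 ± 0.15, adjusted p = 2.02e-08), and adult rats 1.98-fold more than old rats (0.99 ± 0.19, adjusted p = 1.08e-04). The second Mcm4 probe gave 1.38 ± 0.16 and 0.56 ± 0.21, the latter with an adjusted p of 0.0237. The 4 pups whose arrays were scanned on the fifth day had levels from 1.06 to 1.16, below the 1.30 to 1.95 of the 11 pups of the fourth day, and the second probe separated these pups in the same way. Without those 4 pups the newborn minus adult difference of Mcm4 was 1.43. With normexp and quantile normalization it was 0.78, newborn minus old fell from 2.31 to 1.19 and adult minus old was 0.41.

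Mcm5 ranged from 2.56 to 3.58 (median 2.94) in the pups. Adult rats had 0.63, 0.68, 1.13 and 0.67 and old rats 0.15, 0.11, −0.16 and 0.13. The ages were again separate, with 4.56-fold more in newborn than adult rats (2.19 ± 0.11, adjusted p = 1.05e-14) and 1.65-fold more in adult than old rats (0.72 ± 0.14, adjusted p = 1.25e-04). Against old rats, the newborn level was 7.52-fold higher (log2 difference 2.91). With normexp and quantile normalization the newborn differences of Mcm5 were smaller, 1.43 against adult and 1.89 against old rats.

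Mcm6 ranged from 4.03 to 5.24 in 18 pups (median 4.80), one L1 value having been left out because its spot was flagged as not uniform. The adult rats had 2.44, 2.32, 2.97 and 2.63 and the old rats 2.03, 1.84, 1.99 and 2.17. Newborn minus adult was 2.15 ± 0.11 (adjusted p = 1.95e-14) and adult minus old 0.58 ± 0.14 (adjusted p = 8.3e-04), with no overlap between ages.

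Mcm7 differed from the other subunits in the order of the older groups. The pups ranged from 5.25 to 6.03 (median 5.65), the adults had 4.13, 4.11, 4.20 and 4.21 and the old rats 4.34, 4.35, 4.31 and 4.61, so that every old rat lay above every adult rat. Newborn rats had 2.82-fold more than adult rats (1.50 ± 0.08, adjusted p = 1.09e-14) and 2.38-fold more than old rats, and the first difference was 0.86 with normexp and quantile normalization. Adult minus old was −0.24 ± 0.10 (adjusted p = 0.035), close to the median of all probes, −0.19. Its sign depended on the scaling: it was −0.00 with quantile normalization and 0.28 (adjusted p = 0.00799) with normexp background correction and quantile normalization.

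Pcna, the clamp, moved less than the helicase genes. Its brighter probe ranged from 5.32 to 6.34 in the pups (median 5.86), with adult rats at 5.02, 4.88, 5.64 and 5.53 and old rats at 5.01, 4.96, 5.05 and 5.13. Of the 19 pups, 14 lay above the highest adult rat and all lay above the highest old rat. The adults fell into the pairs scanned together, 5.53 and 5.64 on the first day and 4.88 and 5.02 on the second. On their brighter or only probes, Mcm2, Mcm4, Mcm6, Mcm7, Rrm1 and Tyms also had the first-day adults above the second-day adults. Mcm3, Mcm5 and Rrm2 did not. The part of the scan day in these levels was not tested. For Pcna, newborn minus adult was 0.55 ± 0.13 (1.47-fold, adjusted p = 4.86e-04) and newborn minus old 0.78 ± 0.13 (1.72-fold). The first of these did not hold with other scalings: it was 0.19 (adjusted p = 0.0988) with quantile normalization and −0.08 (adjusted p = 0.538) with normexp. The second probe, which spans 205 bases, had the adult pairs in the opposite order and gave 0.91 ± 0.11, and 0.84 and 0.70 under these scalings.

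Rrm1, the large subunit of ribonucleotide reductase, ranged from 4.03 to 5.19 in the pups (median 4.65). The adult rats had 3.98, 3.79, 4.11 and 4.02 and the old rats 3.80, 3.76, 3.70 and 4.11. Of the 19 pups, 18 lay above every adult and every old rat, while adult and old rats overlapped. Newborn minus adult was 0.68 ± 0.12 (1.61-fold, adjusted p = 1.6e-05), but the other probes, which span 1719 and 941 bases, gave 0.28 ± 0.14 (adjusted p = 0.0813) and 0.14 ± 0.14 (adjusted p = 0.371). Newborn minus old passed on all 3 probes, with 0.82, 0.61 and 0.56. Adult minus old passed on none, with 0.13, 0.33 and 0.42.

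Rrm2, the small subunit that carries the radical-forming iron site, had a wider range. On its brighter probe the pups ranged from 2.18 to 3.22 (median 2.67), the adult rats had 0.78, 0.78, 0.99 and 0.77 and the old rats 0.00, −0.96, −0.25 and −0.40. The ages did not overlap. Newborn rats had 3.69-fold more than adult rats (1.88 ± 0.14, adjusted p = 2.32e-11) and 8.66-fold more than old rats (3.11 ± 0.14), and adult rats had 2.35-fold more than old rats (1.23 ± 0.19, adjusted p = 4.76e-06). The second probe had pups from 0.81 to 1.79, adults from −1.11 to −0.80 and old rats from −1.01 to −0.27, giving 2.31 ± 0.12 for newborn minus adult, 1.96 ± 0.12 for newborn minus old and −0.35 ± 0.16 (adjusted p = 0.0573) for adult minus old. The adult minus old difference therefore had opposite signs on the 2 probes. With normexp and quantile normalization the brighter probe gave 1.46, 2.01 and 0.54 for the 3 differences. The SD between the 2 arrays of an old rat was 0.65 on the brighter probe, against 0.05 to 0.33 for the other tested probes in either group. Both probes were placed by the files at chr19:25568876-25568935 and chr19:25569644-25569703 of rn3, whereas RefSeq places Rrm2 on another chromosome of GRCr8, and whether RNA of a near-identical copy was measured is uncertain. The probes are printed because they disagree.
Rrm2, brighter probe: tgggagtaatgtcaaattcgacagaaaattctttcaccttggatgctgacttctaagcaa
Rrm2, second probe: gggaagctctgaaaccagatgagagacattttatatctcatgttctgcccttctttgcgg

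Tyms was above background on all 19 pup arrays, all 8 adult arrays and 5 of the 8 old arrays, and did not pass the filter. Its levels ranged from 0.13 to 1.21 (median 0.73) in pups, were −1.05, −1.09, −0.69 and −0.75 in adult rats and −1.79, −1.95, −1.99 and −1.75 in old rats. The ages did not overlap. In a fit over all probes without the filter, newborn minus adult was 1.60 ± 0.11, newborn minus old 2.58 ± 0.11 and adult minus old 0.97 ± 0.14 (adjusted p = 9.46e-12, 4.65e-15 and 4.1e-06).

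**Figure D2:**
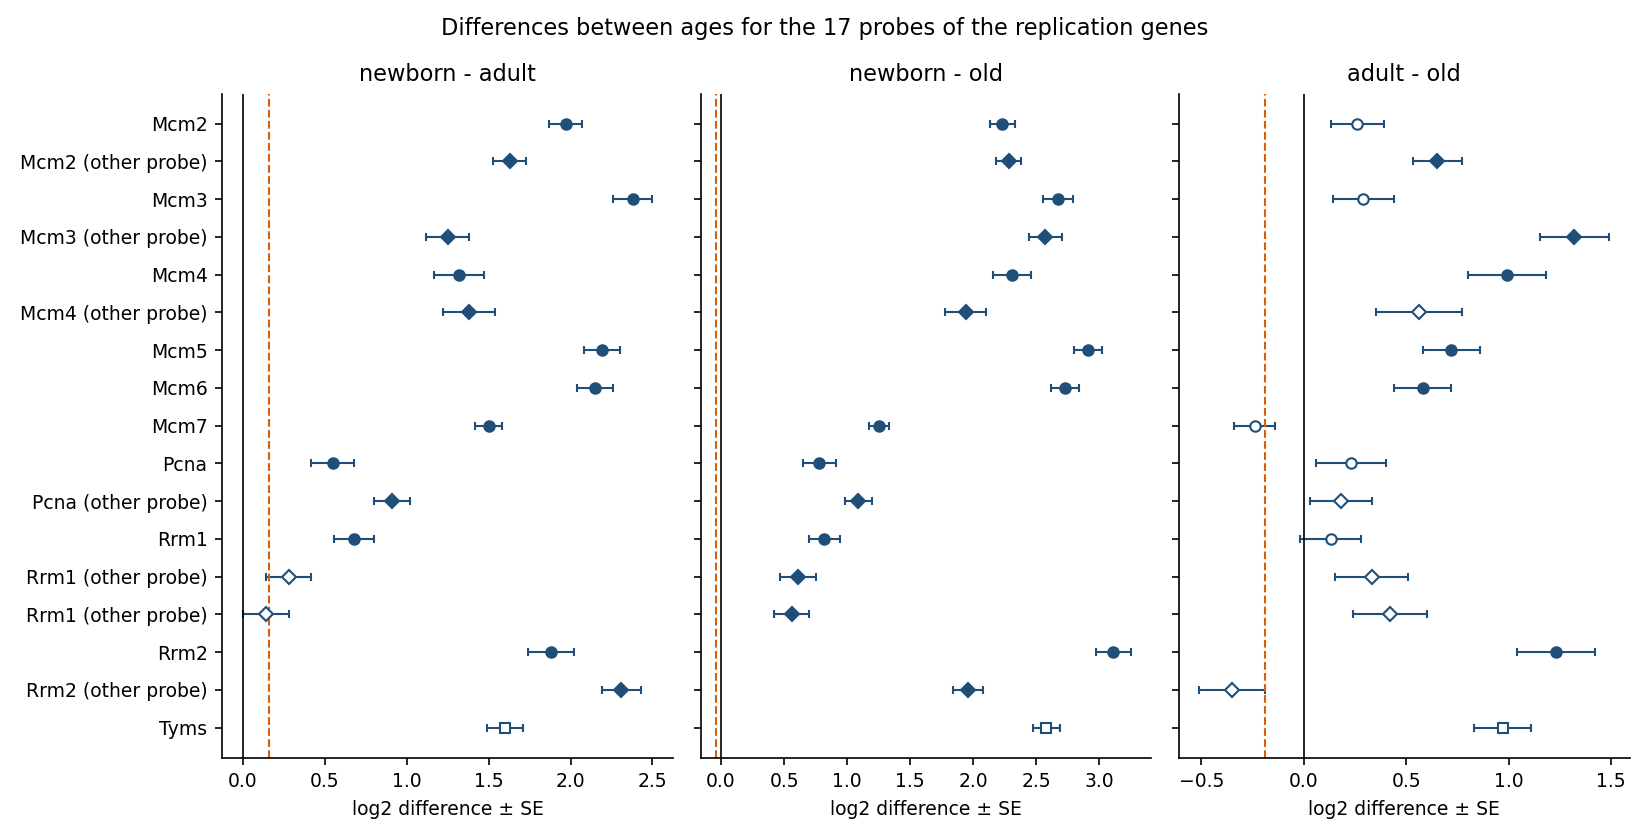
Differences between ages for the 17 probes, as log2 difference ± SE. Filled symbols have an adjusted p under 0.01, circles are the brightest probe of a gene, diamonds its other probes, the square is Tyms, which was not in the filtered test, and the dashed line is the median of all probes (0.16, −0.04 and −0.19). Newborn differences lie to the right of the dashed line except for the third Rrm1 probe against adult rats, while in adult minus old the probes of Mcm3 and Rrm2 lie far apart.

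Within the scan day that they shared, L1 pups and old rats differed for the same genes. All 9 genes were higher in L1 than in old rats, against 17.7% of all probes, and so were the 16 tested probes. The means compared are of that day, but these calls and adjusted p use the spread of the fit over all 27 rats and 5 scan days. The difference was 2.31 for Mcm2, 2.94 for Mcm3, 2.42 for Mcm4, 2.85 for Mcm5, 2.90 for Mcm6 and 1.22 for Mcm7. It was 0.53 for Pcna (adjusted p = 0.00835), 1.04 for Rrm1 and 3.29 for Rrm2. These values were measured on 1 slide of L1 and 2 slides of old rats.

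Between litters, 7 of the 9 genes differed (F test over the 4 litters, adjusted p under 0.01), the exceptions being Mcm4 (adjusted p = 0.768) and Rrm2 (adjusted p = 0.109). Since 36.4% of all probes differed, and L1 was scanned on another day than the other litters, this count describes the litters and their arrays together. L2 had the lowest mean of the 4 litters for 7 of the 9 genes. Mcm3 had means of 6.10, 5.27, 5.93 and 5.99 in L1 to L4 (adjusted p = 9.2e-05) and Mcm6 of 4.90, 4.19, 4.89 and 4.95 (adjusted p = 1.09e-04). Pcna followed another order, with 5.57, 5.59, 6.15 and 5.99. Among the 11 pups of L2, L3 and L4 scanned on the fourth day, Mcm6 alone was called (adjusted p = 0.00428, 6.04% of all probes), with means of 4.23, 4.99 and 4.96. With the scan day as a block over the 15 pups of these litters, Mcm3 and Mcm6 were called (9.33% of all probes), and without the block these 2 genes were called as well (6.46%). All 3 fits left out L1, so that they differ from the first in more than the scan day. The day that remained held too few pups for a value of its own.

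Within a group, the same rat often had the highest level of most of the 10 genes. Rat 10 was highest for 10 of 10 genes in L1, rat 23 for 9 in L2, rat 27 for 10 in L3 and rat 35 for 7 in L4. Among adults rat 15 was highest for 9 genes, and among old rats rat 20 for 7. Mki67, which marks cycling cells, was also highest in rats 10, 23, 27, 35 and 15 of their groups, but not in old rat 20. It stood at 3.97 in rat 10 and at 3.26 to 3.63 in the other L1 pups, and at 1.30 in rat 15 and 0.76 to 0.96 in the other adults. In L4 the margin was narrow, with 3.67 in rat 35 and 2.97 to 3.65 in the other pups. The genes of a rat share its arrays, their scaling and their scan day, which for rat 15 was the first, and these ranks are a description.

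**Figure D3:**
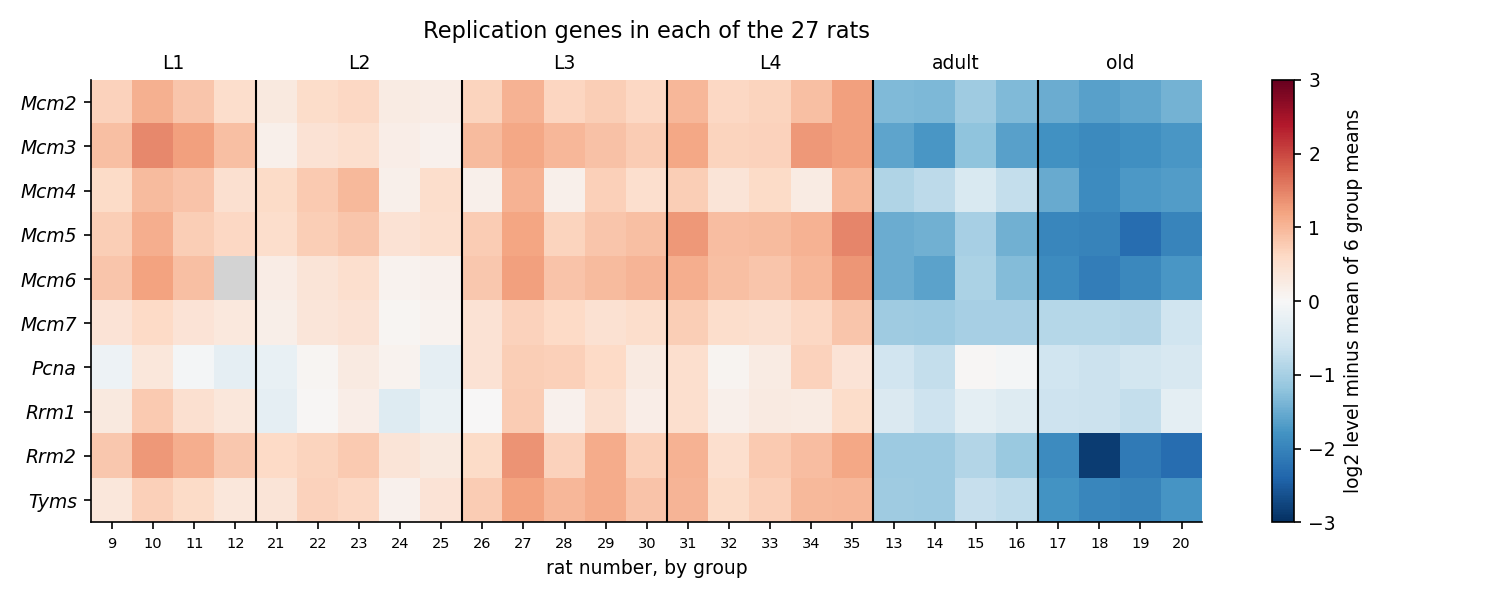
Levels of the 10 genes in each rat after subtracting, for each gene, the mean of the 6 group means. Colour gives the log2 difference from that mean, columns are rats by group, and grey is the Mcm6 value left out. Averaged over the 9 tested genes the groups stood at 0.70 (L1), 0.31 (L2), 0.70 (L3), 0.77 (L4), −1.01 (adult) and −1.47 (old), and rats 10, 27 and 35 are the reddest columns.

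Related genes were described by lists, whose counts stand against the 39.6% of all probes that were higher in newborn than adult rats and the 26.3% that were lower (median 0.16). Of the origin licensing genes, 6 of 9 tested were higher in newborn than adult rats and 1 lower, with a median of 0.90. The highest were Cdt1 (2.38 ± 0.10) and Cdc6 (2.33 ± 0.13), which load the helicase, and the lowest was Orc5 (−0.41 ± 0.11, adjusted p = 0.00202), a subunit of the origin recognition complex. Of the origin firing genes, 8 of 11 were higher and 1 lower, with a median of 1.48. Recql4 (2.22 ± 0.11) and Dbf4 (2.01 ± 0.11), the activator of the Cdc7 kinase, led, and Timeless, a fork protection protein, was lower (−0.55 ± 0.12).

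Of 25 genes for polymerases and other fork proteins, 20 were higher and 1 lower in newborn than adult rats, with a median of 1.16. The histone chaperone genes Chaf1b (2.77 ± 0.10, 6.81-fold) and Asf1b (2.47 ± 0.10) stood first, and Top1, the type I topoisomerase, was 3.28-fold lower (−1.71 ± 0.11, adjusted p = 5.63e-13). Of 11 nucleotide supply genes, 9 were higher and 1 lower, with a median of 0.77. Tk1, the cytosolic thymidine kinase, differed by 2.30 ± 0.10. Samhd1, which breaks down deoxyribonucleotides, had −0.51 ± 0.19 (adjusted p = 0.0196).

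Of the E2F and RB genes, whose products control transcription at the entry of S phase, 5 of 7 were higher and 2 lower, with a median of 0.37, where all probes had 39.6%, 26.3% and 0.16. E2f8 differed by 2.82 ± 0.12 (7.08-fold) and E2f1 by 1.86 ± 0.11, and E2f5 was lower (−0.82 ± 0.08). Of 9 proliferation markers, 8 were higher, with a median of 2.49. Cdk1 differed by 2.97 ± 0.11, Plk1 by 2.69 ± 0.10 and Mki67 by 2.49 ± 0.17, whereas the mitotic kinase gene Aurkb had 0.25 ± 0.23 (adjusted p = 0.345).

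Between adult and old rats, 15.3% of all probes were higher in adult rats and 31.7% lower, and the lists were not tested against these shares or against each other. Proliferation markers were higher in adult rats for 6 of 9 genes and lower for none, with a median of 0.89, and origin licensing genes were higher for 4 of 9 and lower for none, with a median of 0.54. Polymerases and fork proteins were higher for 2 of 25 and lower for 10, with a median of −0.02, and nucleotide supply genes were higher for none of 11 and lower for 4, with a median of −0.35, where all probes had −0.19. Origin firing genes were higher for 2 of 11 and lower for 2, and E2F and RB genes higher for 4 of 7 and lower for 1. Mki67 had −0.18 to 0.04 in old rats and 0.76 to 1.30 in adults (1.04 ± 0.21, adjusted p = 2.22e-04). Top1 was higher in adult than old rats by 1.31 ± 0.14.

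**Figure D4:**
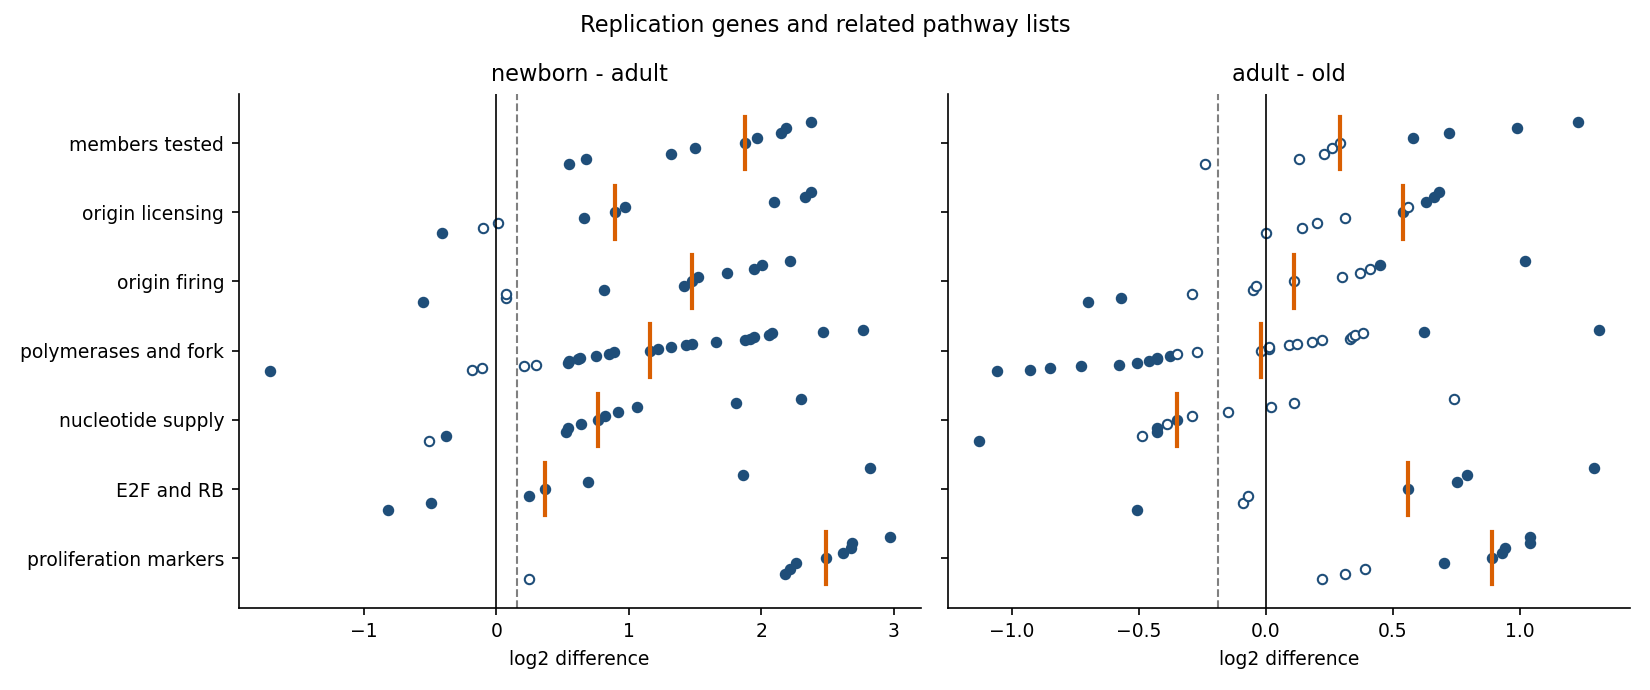
Newborn minus adult (left) and adult minus old (right) log2 differences of the 9 tested genes and of the genes of 6 related lists. Each point is a gene, filled where the adjusted p was under 0.01, orange bars are list medians and the dashed line is the median of all probes (0.16 and −0.19). The list medians lie at or above 0.37 on the left and between −0.35 and 0.89 on the right.

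Over the 6 group means, 6 genes outside the 10 had the profile most like the mean of the 9 tested genes, among 15378 probes with a gene symbol and by the root mean square difference of centred levels. They were Raph1 (0.0633), Pola2 (0.097), Clvs1 (0.109), Dclk1 (0.112), Tril (0.121) and Got1l1 (0.124). The 9 genes themselves lay between 0.13 and 0.589 from their own mean. Pola2, the second subunit of DNA polymerase alpha, was 1.66 ± 0.11 higher in newborn than adult rats.

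Markers of the tissue's cell types moved with the same ages. Among all probes, 39.6% were higher and 26.3% lower in newborn than adult rats, and 27.7% and 31.8% against old rats. Omp, the marker of mature olfactory sensory neurons, was well above background in all rats, at 4.29 to 5.61 in pups, 7.19 to 7.72 in adults and 7.91 to 8.37 in old rats, and all 6 markers of these neurons were lower in newborn than adult rats. Their summed level, in multiples of the array median, was 196 to 435, 1170 to 1580 and 1810 to 2450. Globose basal cell markers were higher in newborn than adult rats for 4 of 4 tested genes and than old rats for 3, with sums of 81.1 to 168 in newborn, 63.2 to 76.6 in adult and 101 to 109 in old rats. These sums follow bright probes most, here Sox2, with mean levels of 6.29, 5.71 and 6.53, whereas Neurog1 (3.87, 2.17 and 1.22) and Neurod1 (3.98, 3.26 and 2.19) were lowest in old rats. The list also holds Kit and Lgr5, which did not pass the filter. In the fit without it, Kit was lower in newborn than adult rats (−0.76 ± 0.19, adjusted p = 0.00169) but had 0.72 ± 0.19 against old rats. Lgr5 had 0.38 ± 0.36 against adult and −1.04 ± 0.36 against old rats. Immature neuron markers were higher in newborn than adult rats for 5 of 5 tested genes, with sums of 1400 to 2820, 870 to 1260 and 812 to 1030. Sustentacular cell markers were lower for 3 of 3, with sums of 132 to 420, 1300 to 1560 and 1680 to 2080.

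Markers of cells outside the epithelium also differed. Their counts stand against the same shares, 39.6% of all probes higher in newborn than adult rats and 27.7% higher than in old rats. Red cell precursor markers were higher in newborn than adult rats for 3 of 3 tested genes, with sums of 227 to 955 in newborn, 48.9 to 101 in adult and 154 to 356 in old rats. Cartilage markers were higher for 3 of 4, with sums of 65.7 to 318, 18.2 to 22.3 and 13.2 to 16.1, and markers of neutrophils and marrow for 2 of 2, with sums of 18.7 to 179, 3.39 to 10.5 and 4.68 to 54.8, where Mpo, Ltf and Ngp were not well above background on any old array. Of the bone markers none of 5 was higher in newborn than adult rats, but 4 were higher in newborn than old rats, with sums of 1790 to 5940, 1830 to 3320 and 375 to 696. The endothelial receptor gene Kdr, the tested one of 3 endothelium markers, was higher in newborn than adult (1.67) and old rats (1.99), with sums over the list of 23.3 to 72.2, 12.4 to 13.9 and 9.31 to 11.9. Skeletal muscle markers had sums of 30.3 to 334, 11.7 to 25.2 and 46.1 to 72.5. Of these, Tnnc2 was tested and was higher in newborn than adult rats (1.85) but had 0.02 against old rats, and Acta1 was well above background on all 19 pup arrays, 1 of 8 adult arrays and none of the old arrays. Against the 39.6% of all probes, horizontal basal cell markers were higher in newborn than adult rats for 1 of 3, macrophage markers for 1 of 4, ensheathing glia markers for 1 of 4, T cell markers for 1 of 2, and B cell and ciliated respiratory cell markers for none of 1 and of 5. The part of these cells in the levels of the 10 genes was not tested.

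Promoter windows of 8 of the 10 genes (not Mcm4 and Rrm2) were searched, from 250 bases before to 50 bases after the RefSeq transcript start in GRCr8, on both strands, because genes of this set are known targets of E2F factors and moved together here. Any of the words TTTCCCGC, TTTCGCGC, TTTGCCGC and TTTGGCGC, called E2F words here, was present in 6 of the 8 windows, Mcm2, Mcm3, Mcm5, Mcm6, Mcm7 and Tyms, and in 618 of all 27457 windows (2.25%). In the promoters of 72 genes of the related lists the share was 34.7%. With only the 150 bases before the start, 5 of the 8 and 1.25% of all windows had one. Pcna and Rrm1 had none of these words in the window. CCAAT was found in 6 of 8 windows (37.7% of all), GGGCGG in 6 (34.9%) and TTTGAA in 1 (18.1%). In Mcm2, Mcm5 and Mcm6 words on opposite strands overlapped, and these were then counted as 1 window. A match is a description of the letters and no evidence of binding. The 150 bases before the start are printed for the 5 genes with a match there, with E2F words in capitals.
Mcm2, chr4:122918095-122918244, minus strand: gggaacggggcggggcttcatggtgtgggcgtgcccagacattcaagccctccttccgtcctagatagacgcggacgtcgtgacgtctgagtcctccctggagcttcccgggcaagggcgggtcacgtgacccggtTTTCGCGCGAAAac
Mcm5, chr19:13488663-13488812, plus strand: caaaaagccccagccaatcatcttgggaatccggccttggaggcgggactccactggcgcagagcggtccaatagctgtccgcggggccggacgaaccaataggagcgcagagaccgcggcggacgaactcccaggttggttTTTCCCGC
Mcm6, chr13:42404353-42404502, minus strand: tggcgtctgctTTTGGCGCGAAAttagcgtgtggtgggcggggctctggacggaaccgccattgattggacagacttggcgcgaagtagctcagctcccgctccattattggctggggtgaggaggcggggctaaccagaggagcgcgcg
Mcm7, chr12:22163179-22163328, minus strand: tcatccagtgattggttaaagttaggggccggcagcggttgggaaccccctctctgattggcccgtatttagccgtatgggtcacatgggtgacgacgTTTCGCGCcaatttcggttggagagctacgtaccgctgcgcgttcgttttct
Tyms, chr9:120776084-120776233, minus strand: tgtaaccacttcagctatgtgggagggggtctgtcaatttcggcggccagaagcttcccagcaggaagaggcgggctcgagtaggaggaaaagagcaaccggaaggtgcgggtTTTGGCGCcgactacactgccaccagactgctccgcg

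**Figure D5:**
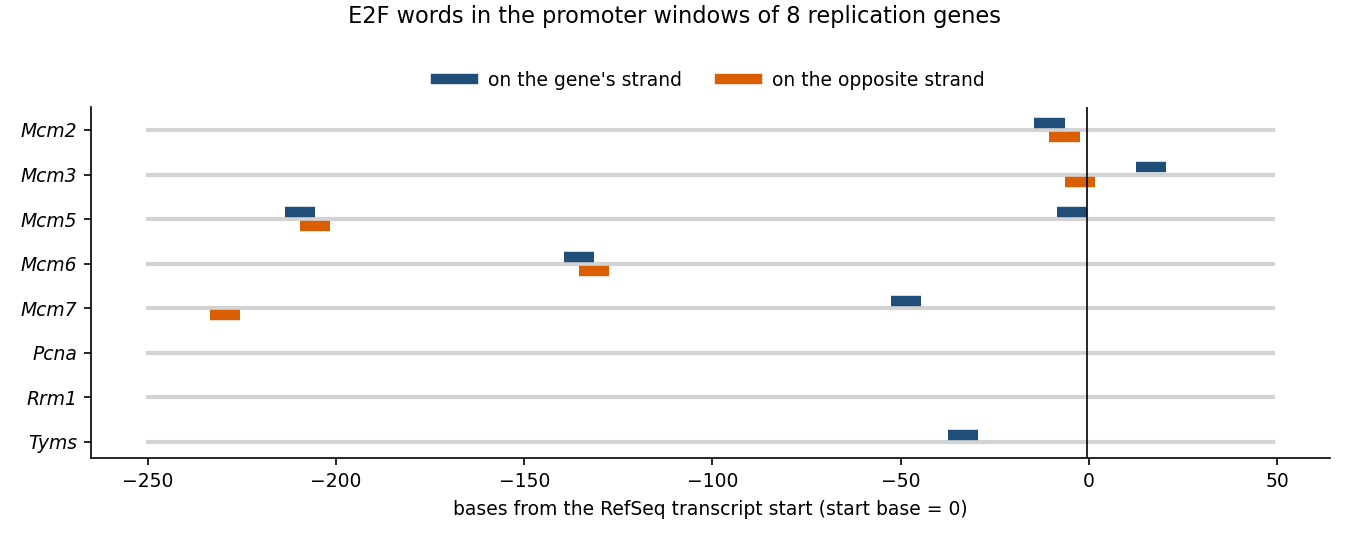
Positions of E2F words in the promoter windows of 8 genes, as bases from the transcript start (0 is its first base). Blue bars are on the strand of the gene and orange bars on the opposite strand. In Mcm2, Mcm3 and Mcm5 a word lies within 20 bases of the start, and Pcna and Rrm1 have none.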

How the data were processed

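RNA of 27 rats was measured on 35 arrays. The authors scanned the arrays and deposited, for each spot, a background-subtracted intensity, the mean spot intensity and the local background from Feature Extraction (releases 9.5.1.1 for adult and 9.5.3.1 for other arrays, per the file headers), not normalized between arrays. They also deposited a matrix of ratio values, scaled by array median and then by probe, which served here as an alternative. The genome coordinates of probes are those of the files, in rn3.

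Control spots and 890 values flagged as outliers were left out, intensities were scaled to the array median and floored at 0.01 before taking log2. For rats with an array per nostril (adult and old), the mean of both was used, and n counts rats. Levels were fitted with limma 3.58.1 (lmFit and eBayes, R 4.3.3) in 1 model over L1, L2, L3, L4, adult and old rats, newborn being the mean of the 4 litters, with Benjamini-Hochberg adjustment over the 23668 probes above background on at least 3 arrays of each litter and 6 of 8 arrays of adult and of old rats. The fit was tested on simulated data. Slide and scan day were tried as random blocks (correlations 0.27 and 0.289).

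The genes named are the 10 genes with all their probes, the 2 highest and the lowest newborn minus adult difference of each related list, the first gene of the proliferation and cell type lists and the 6 most similar profiles. Some genes that this rule names are not reported here. The genes and lists were chosen with earlier results of these data known. Sequences are those of the scanner files (probes) and of RefSeq, GRCr8 (promoters). The number of arrays limits the precision.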

Additional observations from a re-analysis of the deposited data

Results flagged for a closer look

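In groups of 4 or 5 rats, 1 rat lay far from the others, by a gap that was large against the range of its group, in 6 of the 59 combinations of gene and group tested, where chance gives about 1 in 20. Adult rat 15 accounted for 3 of them as the highest rat, with levels of 3.29 for Mcm2 (next 3.05), 1.13 for Mcm5 (next 0.68) and 0.99 for Rrm2 (next 0.78). In L3, rat 27 had the highest Mcm2 level, 5.41 (next 5.11). Among old rats, rat 19 had the lowest Mcm5 level, −0.16 (next 0.11), and rat 20 the highest Mcm7 level, 4.61 (next 4.35). The genes of a rat share its arrays, so these are not independent.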

How the results depend on the processing

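The count of genes higher in newborn than in adult rats and in newborn than in old rats was between 8 and 10 and between 9 and 10 in the alternatives run, 10 where the filter was dropped or eased so that Tyms was also tested, including those that left out 1 rat and, chosen after seeing the data, the 4 pups of the fifth scan day. Newborn minus adult for Pcna was the exception among the single genes: it turned to −0.08 (adjusted p = 0.538) with normexp and quantile normalization, and lost its call with quantile normalization (0.19), litter means as replicates (adjusted p = 0.0145) and the methods' t-test (adjusted p = 0.0666). Rrm1 lost it with the mean of its probes (0.37, adjusted p = 0.0143). Between adult and old rats, Mcm7 turned to 0.28 (adjusted p = 0.00799) with normexp and quantile normalization. There 1 gene was lower with every array as a sample and 1 was higher with the methods' t-test. Mcm6 lost its call with the authors' matrix (adjusted p = 0.333), litter means (adjusted p = 0.0133) and the methods' t-test (adjusted p = 0.0361), Mcm5 with the methods' t-test (adjusted p = 0.0109) and Rrm2 with it (adjusted p = 0.0175) and with the mean of its probes (0.44, adjusted p = 0.0222). Mcm2 and Mcm3 gained one with the mean of their probes (0.45 and 0.80), Mcm3 and Pcna with quantile normalization (0.41 and 0.58), Pcna also with normexp (0.80), and Mcm2 and Mcm7 with every array as a sample. The number of genes that differed among litters was 4 with pups only in the fit, 2 with the slide as a random block among them, 1 within the fourth scan day and 2 with the scan day as a block, both without L1, 2 for the same 3 litters with no block, and between 4 and 7 when 1 rat was left out, 4 without L2 rats 21, 24 or 25. The cause of these changes was not tested. No paired analysis was possible because each rat has its own number and no rat was measured at 2 ages.

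The 4 adult and 4 old rats, 2 ages of males and pups of unknown sex, and scan days that follow age set the limits. Levels of 1 probe depend on which part of a transcript it reaches, and 6 of the 10 genes had more than 1 probe. Tyms lay close to background in old rats.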
